A study of Mus musculus with 96 samples.

Results

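The 9 genes described here encode the carnitine shuttle and the chain-shortening enzymes of mitochondrial beta-oxidation in mouse liver: Cpt1a, Slc25a20, Cpt2, Acadvl, Acadl, Acadm, Acads, Hadha and Hadhb. They were taken by name, and all 9 were present in each of the 8 deposited tables, among 24066 genes with a symbol of their own. The data are 96 libraries of poly(A)-selected RNA from livers of C57BL/6J mice, in 8 arms. Each arm has 3 libraries at each of ZT0, ZT6, ZT12 and ZT18, zeitgeber time (ZT) being the hours since lights on. The dams lived under a fixed cycle of 12 h light and 12 h dark (control), or their cycle was moved 8 h earlier every 5 days during pregnancy and at no other time (shifted). Livers of control and shifted mothers and of their fetuses gave 4 arms. The other 4 are sons of control or shifted dams, put on low-fat or high-fat food at 4 weeks of age and kept on it for 12 weeks. Gestation day, fetal sex and any pooling of fetuses are not stated in the labels used here. Nor is it stated that the 3 libraries of a group are from separate animals, so p-values measure the spread between libraries, which may in part be technical. The schedule was given to the dams, but no dam or litter is assigned to the libraries here. Libraries of a fetal or offspring arm may therefore share a dam, and n counts libraries, not dams.

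Long-chain fatty acids enter the mitochondrial matrix as carnitine esters. Cpt1a at the outer membrane makes the ester and is blocked by malonyl-CoA, Slc25a20 carries it across the inner membrane, and Cpt2 returns it to CoA. An acyl-CoA dehydrogenase matched to chain length then takes the first step of each cycle (Acadvl for very long, Acadl for long, Acadm for medium and Acads for short chains), and the trifunctional protein, whose alpha subunit is Hadha and beta subunit Hadhb, completes the cycle for long chains. In liver the pathway is known for supplying ketone bodies in fasting, under control of the nuclear receptor PPAR-alpha, and for rising after birth when milk fat becomes the main fuel.

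The promoters of the 3 members that hold a nuclear receptor half-site are shown, with the gap between Hadha and Hadhb, which moved most alike. The choice of the 3 promoters does not follow the differences below, but the gap was chosen for that likeness in these data. Of the 3 members with the half-site, Cpt1a and Acadm were called in high-fat offspring on scaled values. Acadvl was called there only with values as deposited. Acads, Hadha and Hadhb were called without the half-site. A link between the half-site and the calls was not tested. RefSeq start windows from 250 bases before to 50 after the start (GRCm38.p6) were at hand for all 9 members, and the sequences are given 5′ to 3′ on the gene's strand (minus for Acadm and Acadvl, plus for Cpt1a, and Hadhb's plus strand for the gap), with bases of annotated exons left out. Capitals mark AGGTCA or its reverse complement TGACCT, with the extra base of AAGGTCA in Acadm, and in the gap GGGCGGG, the reverse complement of CCCGCCC.
Cpt1a promoter, chr19:3323051-3323284: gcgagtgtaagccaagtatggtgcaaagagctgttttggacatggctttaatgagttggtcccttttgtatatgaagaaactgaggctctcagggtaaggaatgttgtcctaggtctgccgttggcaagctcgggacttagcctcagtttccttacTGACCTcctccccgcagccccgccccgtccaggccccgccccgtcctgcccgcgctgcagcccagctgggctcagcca
Acadm promoter, chr3:153944644-153944893: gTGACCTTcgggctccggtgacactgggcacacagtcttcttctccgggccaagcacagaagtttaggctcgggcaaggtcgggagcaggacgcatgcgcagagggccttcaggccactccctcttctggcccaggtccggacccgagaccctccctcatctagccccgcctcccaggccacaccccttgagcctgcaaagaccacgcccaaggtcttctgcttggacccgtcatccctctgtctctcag
Acadvl promoter, chr11:70015429-70015678: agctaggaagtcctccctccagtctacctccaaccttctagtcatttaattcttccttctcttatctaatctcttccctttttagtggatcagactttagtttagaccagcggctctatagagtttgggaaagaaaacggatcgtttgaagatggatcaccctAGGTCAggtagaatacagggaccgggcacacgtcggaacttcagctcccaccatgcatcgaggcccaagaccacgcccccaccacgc
Hadha and Hadhb gap, chr5:30155163-30155247: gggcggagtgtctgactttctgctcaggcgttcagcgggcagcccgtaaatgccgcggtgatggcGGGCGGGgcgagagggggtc
On both strands, AGGTCA was in 3 of the 9 member windows (Cpt1a, Acadm and Acadvl), against 16.26% of all 32851 windows, and the longer AAGGTCA, which overlaps it, was in 1 (Acadm), against 4.72%. AGGTCANAGGTCA, the paired form bound by PPAR-alpha with its partner, was in 0 of 9 and in 0.04% of all windows. The clock motifs CACGTG and TTATGTAA were in 0 of 9, against 7.15% and 0.94%. CCCGCCC was in 6 of 9 windows (Cpt1a, Slc25a20, Cpt2, Acadl, Acads and Hadhb), against 25.57%, and CCAAT in 1 (Cpt1a), against 37.41%. Hadha and Hadhb are transcribed away from each other on chromosome 5 with 85 exon-free bases between them, of which 69.41% are G or C, and their windows share 228 bases. These letter matches are a description of the windows and not of binding.

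Values are FPKM, fragment counts scaled to transcript length and library size, divided here by a factor per library within each stage. Depth per library is unknown, because the tables hold no counts, and the sum of FPKM over a library ran from 546763 to 1036288. Between the deposited and the scaled values, the median difference over all genes moved by over 0.1 (log2) in high-fat offspring (from 0.01 scaled to 0.21 as deposited), in the diet by schedule term (0.02 to 0.17) and between fetuses and mothers (-0.02 to 0.56 in control, -0.02 to 0.66 in shifted). Of the offspring libraries, 5 had a median correlation with their own arm under 0.95, the lowest at 0.89 in high-fat control offspring. The clock gene Arntl followed the time labels in control mothers (7.02 FPKM ± 0.48 at ZT0 and 0.75 ± 0.22 at ZT12, SD, n = 3) and in all 4 offspring arms. In shifted mothers its highest mean was at ZT6 (8.28 ± 1.55), so clock time there did not follow ZT. Arntl also varied between their ZT0 libraries (2.28 ± 2.47), so libraries of 1 ZT may differ in clock time. In fetuses its means stayed at 4.31 to 5.89 FPKM at all times, so Arntl could not check the time labels there. Hepatocyte markers were abundant in all arms. Of 4 adipocyte markers Lep was listed at 0 in every library of 3 of the 4 offspring arms, and in the other, high-fat shifted, the sum of the 4 was highest (median 3.17 FPKM and up to 36.5, against medians of 0.723 to 1.06 and up to 16.3 in the other arms). In each offspring arm only 1 of the 4, the lipid droplet protein Cidec, reached a mean of 1 FPKM. The sum is therefore mostly that of Cidec and does not count adipocytes.

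Acadvl was the most abundant of the 9 per transcript length in the mothers and in all 4 offspring arms, at 165 to 195 FPKM in the arm means, and Cpt2 was the least abundant in all of these arms but high-fat control offspring, where Hadha was (45.9 FPKM). In fetuses the order was another one: Acadm led at 178 FPKM ± 47.1 (SD, n = 12) in control fetuses and 152 ± 45.3 in shifted fetuses, and Cpt1a was lowest at 14.3 ± 8.38 and 10.5 ± 6.31. Many neighbours in these orders did not differ beyond their spread, such as Cpt2 (47.0 FPKM ± 4.66), Cpt1a (52.5 ± 17.4) and Slc25a20 (54.9 ± 10.2) in control mothers, or Acads (73.3 ± 9.28) and Hadha (73.4 ± 5.87).

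In high-fat offspring, 5 of the 9 enzymes were higher when the mother had been shifted: the gatekeeper Cpt1a, the dehydrogenases Acadm and Acads, and both trifunctional protein subunits. Their folds were 1.34 to 1.58. The other 4 (Cpt2, Slc25a20, Acadl and Acadvl) did not pass the test, at folds of 0.907 to 1.09. The background was high: 26.3% of all 10860 genes tested were called higher in this comparison and 48.1% in either direction. The median difference of the 9 was 0.42 (log2), beside 0.01 over all genes. Calls are Benjamini-Hochberg adjusted p under 0.05 in limma on log2(FPKM + 1), a scale on which folds are slightly understated.

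Cpt1a ran from 37.3 to 80.1 FPKM (median 51.5) in high-fat offspring of control mothers and from 55.3 to 128 (median 91.7) in those of shifted mothers. The ranges overlapped, but all 12 libraries of the shifted arm lay above the control mean of their own time. At ZT0 the control libraries held 45.6, 52.4 and 40.0 FPKM of Cpt1a and the shifted libraries 72.5, 80.7 and 77.4. At ZT12 they held 80.1, 37.3 and 75.3 against 128, 120.4 and 89.8. The difference was 0.66 ± 0.13 (log2 ± SE, adjusted p = 8.74e-05, limma), a fold of 1.58, and it was positive at each of the 4 times.

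Acadm, the medium-chain dehydrogenase, ran from 77.2 to 154 FPKM (median 99.9) in the control arm and from 112 to 199 (median 142) in the shifted arm, and all 12 shifted libraries were above the control mean of their time. The separation was widest at ZT12, with 195, 199 and 177 FPKM in the shifted libraries and 104, 77.2 and 128 in the control ones. The Acadm difference was 0.52 ± 0.09 (adjusted p = 1.6e-05, limma). Acads, which acts on short chains, ran from 22.4 to 91.8 FPKM (median 70.7) and from 76.2 to 107 (median 85.4), with 11 of 12 shifted libraries above the control mean of their time and a difference of 0.42 ± 0.13 (adjusted p = 0.00913). The lowest control value, 22.4 FPKM, came from ZT12 replicate 2, 1 of the libraries with a low correlation to their arm. The Acads difference was 0.28 with that library left out, the lowest of 24 such fits, and Acads was called in all 24.

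Hadha ran from 34.9 to 59.3 FPKM (median 43.7) in the control arm and from 54.3 to 76.7 (median 65.5) in the shifted arm. Hadhb ran from 31.3 to 118 (median 76.4) and from 91.2 to 129 (median 110.6). For both subunits all 12 shifted libraries were above the control mean of their time. The differences were 0.52 ± 0.12 for Hadha (adjusted p = 0.000472, limma) and 0.61 ± 0.13 for Hadhb (adjusted p = 0.00026). By time they ran from 0.21 at ZT6 to 0.70 at ZT12 for Hadha and from 0.19 at ZT6 to 1.10 at ZT12 for Hadhb. The control Hadhb values at ZT12 were 89.5, 31.3 and 64.6 FPKM, and the lowest came again from the low-correlation library ZT12 replicate 2, which also held the lowest control Cpt1a and Acadm. Without it the differences were 0.50 for Hadhb, 0.58 for Cpt1a and 0.47 for Acadm, in each case the lowest of 24 such fits and still called. Differences over all genes in this comparison moved with transcript GC content and length (Spearman rho across genes -0.31 and 0.44). Hadhb's transcript has the lowest GC of the 9 (39.11%) and the greatest length (4388 bases). Those of Cpt1a (4317 bases) and Hadha (4017) come next in length. With smooth trends in GC and length removed, the Hadhb difference was 0.38 and still called.

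The 4 enzymes that did not pass showed no common direction. Cpt2 was at 56.9 FPKM ± 6.91 in the shifted and 57.4 ± 10.1 in the control arm (SD, n = 12), a difference of -0.00 ± 0.08 (adjusted p = 0.99, limma). Slc25a20, the carrier, was at 68.4 ± 15.7 and 65.9 ± 14.7, and its differences by time ran from -0.30 at ZT0 to 0.41 at ZT18. Acadl was at 94.7 ± 12.3 and 104 ± 13.0 FPKM, below the control mean of the same time in 9 of 12 libraries (-0.14 ± 0.08, adjusted p = 0.136). With values as deposited, 8 of the 9 enzymes were called higher, the exception being Acadl, and 84.6% of all called genes were higher in place of 54.6%. The 5 enzymes named above were called under every alternative run. Hepatocyte markers summed to a lower level in the shifted arm (50052 to 82470 FPKM over 11 genes, median 65558) than in the control arm (70640 to 105331, median 86145); 3 of the 11 fell and 2 rose. Of 6 endothelial markers 3 fell. These counts stand beside 48.1% of all genes called in either direction in this comparison. The 1 adipocyte marker tested, Cidec, a lipid droplet protein, rose (9.30 FPKM ± 11.5 against 1.92 ± 3.19, SD, n = 12, adjusted p = 0.00597). Their part in the differences of the enzymes was not tested. In bulk liver, a change in the number of cells of a type and in RNA per cell cannot be told apart.

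**Figure D1:**
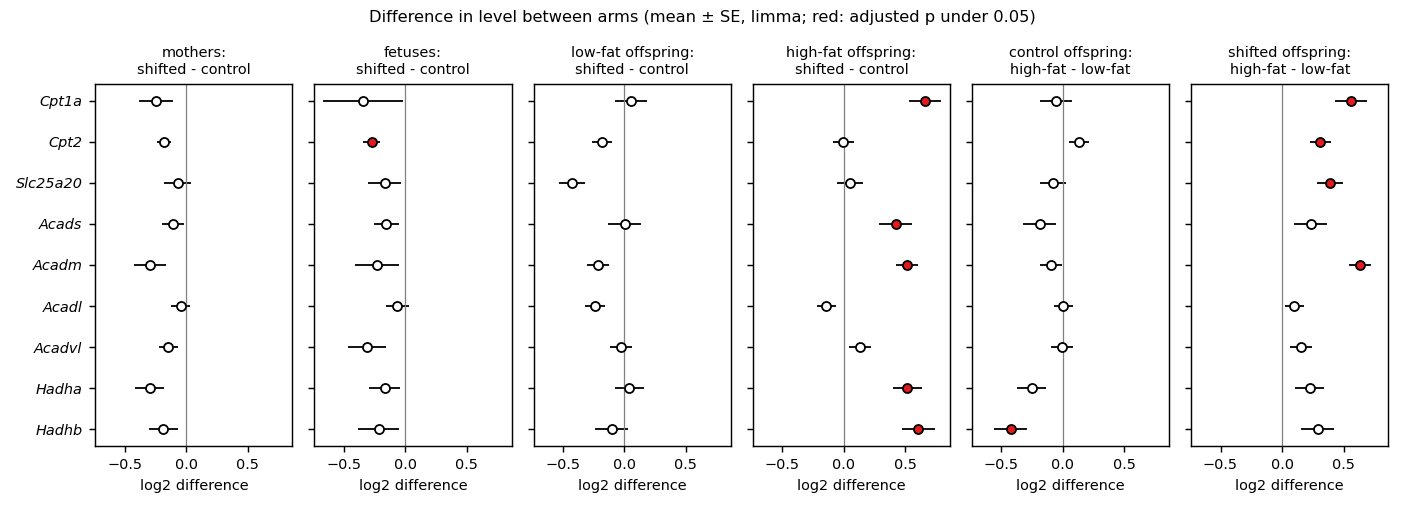
Log2 differences between arms for the 9 enzymes (points, with SE bars, n = 12 libraries per arm; x axis in log2 units), 1 panel per comparison, red where adjusted p was under 0.05. The high-fat offspring panel holds 5 red points between 0.42 and 0.66, and the low-fat panel holds none.

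In low-fat offspring the maternal schedule gave no called enzyme in limma (4 of 9 at an unadjusted p under 0.05), on a background of 0.00921% of genes, 1 of 10860. The largest difference was that of Slc25a20, which ran from 52.0 to 90.7 FPKM (median 66.4) in the control arm and from 33.9 to 71.0 (median 51.8) in the shifted arm. All 12 shifted libraries were below the control mean of their time, with a difference of -0.42 ± 0.11, but the adjusted p was 0.379. Cpt1a was at 64.8 FPKM ± 29.2 against 59.4 ± 17.5 and Acads at 76.3 ± 14.9 against 75.9 ± 13.5 (SD, n = 12), within the spread of the libraries.

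The high-fat diet itself was compared within each maternal schedule. In control offspring, 1 of the 9 enzymes, Hadhb, was lower on the high-fat diet (-0.43 ± 0.13, adjusted p = 0.0262, limma), on a background of 7.82% of genes called lower. Hadhb ran from 69.0 to 158 FPKM (median 87.7) on the low-fat diet and from 31.3 to 118 (median 76.4) on the high-fat diet, with 10 of 12 high-fat libraries below the low-fat mean of their time. The low-fat arm was itself split at ZT6, where the 3 libraries held 73.0, 158 and 157 FPKM. The call was lost with GC and length trends removed, in a fit of only the 2 arms, without the low-correlation libraries, and in 5 of 24 fits that left out 1 library (low-fat ZT0 replicate 3, ZT6 replicates 2 and 3 and ZT18 replicate 2, and high-fat ZT12 replicate 2), where the adjusted p was 0.0706 at most. Without low-fat ZT6 replicate 1, Hadha was called beside Hadhb.

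In offspring of shifted mothers, 4 enzymes were higher on the high-fat diet, on a background of 11.5% of genes called higher: Acadm, Cpt1a, Cpt2 and Slc25a20, so that the whole carnitine shuttle was among them. Acadm went from 59.0 to 159 FPKM (median 102) on the low-fat diet to 112 to 199 (median 142) on the high-fat diet, a difference of 0.63 ± 0.09 (adjusted p = 4.44e-06, limma), with 12 of 12 libraries above the low-fat mean of their time. Cpt2 went from a median of 44.1 to 56.8 FPKM, also with 12 of 12 libraries above (0.31 ± 0.08, adjusted p = 0.00667). Cpt1a differed by 0.56 ± 0.13 (adjusted p = 0.00207) with 9 of 12 libraries above, the exceptions being the 3 libraries at ZT6. Slc25a20 differed by 0.39 ± 0.11 (adjusted p = 0.00678) with 10 of 12 above. These 4 calls held in each of the alternatives run and with any 1 library left out. Hepatocyte markers moved in this comparison too: their sum was 50052 to 82470 FPKM (median 65558) on the high-fat and 54621 to 136178 (median 85551) on the low-fat diet, and 4 of the 11 fell, among them Alb in 12 of 12 libraries, and 1 rose. Of 4 erythroid markers tested 2 rose, Tfrc and Alas2, and Cidec rose as well. These counts stand beside 11.5% of all genes called higher, which were 49.6% of all called genes. Their part in the differences of the enzymes was not tested. The 2 comparisons on the high-fat shifted arm share its libraries, so their calls are not independent.

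The difference between the maternal effects on the 2 diets was tested as an interaction, and 5 enzymes passed, all higher in the high-fat offspring of shifted mothers than the sum of both separate effects: Acadm, Hadhb, Cpt1a, Slc25a20 and Hadha, at 0.47 to 0.73 (log2). On all genes 13.9% were called in that direction, and the median of the 9 was 0.47 beside 0.02 over all genes. For Slc25a20 the interaction (0.47 ± 0.15, adjusted p = 0.0194, limma) joined a low-fat difference of -0.42 to a high-fat difference of 0.05: its mean was 51.7 FPKM in low-fat and 68.4 in high-fat shifted offspring, beside 69.4 and 65.9 in the control arms. Acads had an interaction of 0.42 ± 0.19 (adjusted p = 0.0994), and Cpt2, Acadvl and Acadl had 0.18, 0.16 and 0.10. With upper quartile scaling 3 of the 5 remained (Cpt1a, Acadm and Hadhb). With GC and length trends removed Hadhb and Hadha did not pass (Hadhb at 0.40, adjusted p = 0.17), Acads did, and over all genes 1714 were called in place of 2627.

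In the mothers, the shifted schedule called none of the 9 enzymes in limma (3 of 9 at an unadjusted p under 0.05), on a background of 7.91% of genes. Each of the 9 had a lower fitted mean, from -0.05 for Acadl to -0.30 for Hadha, and the median was -0.18 beside -0.00 over all genes. Cpt2 came nearest: 37.9 to 51.8 FPKM in control mothers (median 47.6) and 37.2 to 47.1 in shifted mothers (median 40.4), with 10 of 12 libraries below the control mean of their time and a difference of -0.18 ± 0.06 (adjusted p = 0.0573). Clock time in shifted mothers did not follow ZT, so that count sets libraries of the same ZT, not of the same clock time, side by side. Without control ZT0 replicate 2, control ZT6 replicate 3 or shifted ZT18 replicate 3, Cpt2 alone passed, and without shifted ZT0 replicate 2 Acadm and Hadha passed. With values as deposited Cpt2 and Hadha passed, and 9.64% of all called genes were higher in place of 44.1%. Endothelial markers fell in the same comparison (5 of 6 genes, summed 28.1 to 58.3 FPKM in shifted and 37.9 to 55.2 in control mothers), and their part was not tested.

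In the fetuses, Cpt2 was the 1 enzyme called between schedules, on a background of 1.47% of genes called lower. It ran from 16.1 to 24.8 FPKM (median 18.9) in control fetuses and from 12.6 to 19.8 (median 15.5) in shifted fetuses. All 12 shifted libraries lay below the control mean of their time, and the difference was -0.27 ± 0.07 (adjusted p = 0.0403, limma). The call was lost without the filter on low values and in 15 of 24 fits that left out 1 library, with adjusted p up to 0.084. These libraries were ZT0 replicates 1 and 2, ZT6 replicate 2, ZT12 replicate 3 and ZT18 replicates 2 and 3 of control fetuses, and ZT0 replicates 1 and 2, ZT6 replicates 1 to 3, ZT12 replicate 1 and ZT18 replicates 1 to 3 of shifted fetuses. All 9 enzymes had lower fitted means in shifted fetuses, at -0.06 to -0.34, but the spread between fetal libraries was wide. Hepatocyte markers (11 genes) summed to a median of 56890 FPKM in shifted fetuses (32637 to 87595) and 70668 in control fetuses (29834 to 101436). Erythroid markers (6 genes) went the other way, at medians of 2739 and 2484 FPKM. The part of these markers in the differences was not tested.

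Cpt1a varied widely between fetal libraries of the same arm. The 12 control libraries, in order of Cpt1a, held 3.18, 3.99, 4.01, 9.12, 10.5, 13.2, 13.5, 20.5, 20.9, 22.4, 25.3 and 25.5 FPKM, and the 12 shifted ones 3.73, 3.93, 4.68, 6.07, 7.53, 9.05, 9.09, 10.9, 11.6, 17.0, 20.7 and 22.1. Libraries of the same time fell on both ends, such as 3.99, 20.5 and 25.5 FPKM at ZT12 in control fetuses. The other enzymes moved with Cpt1a from library to library: over the 24 fetal libraries the Pearson r of the 36 pairs of members ran from 0.47 to 0.98 with a median of 0.87, as a description with no test, since both arms and all times are pooled and each library adds 1 scaling factor to all genes. The 3 control libraries lowest in Cpt1a were also the 3 lowest in summed hepatocyte markers (39291, 40119 and 29834 FPKM over 11 genes, against 64990 to 101436 in the other 9). The 4 shifted libraries lowest in Cpt1a were the 4 lowest in those markers (32637, 34655, 43618 and 34032, against 56235 to 87595 in the other 8). Erythroid markers (6 genes) summed to 4264, 3522 and 2663 FPKM in the 3 control libraries lowest in Cpt1a and to 1894 to 2246 in the 5 highest. Progenitor and myeloid markers (7 genes) summed to 4056, 5187 and 3713 FPKM in those 3 and to 7234 to 7882 in those 5. Control libraries between these ends overlapped with the lowest: ZT6 replicate 3 held 3530 FPKM of erythroid and ZT18 replicate 3 held 4949 of progenitor and myeloid markers. In the 4 shifted libraries lowest in Cpt1a the erythroid sum was 3295 to 4200 FPKM, against 1742 to 3016 in the other 8. Their progenitor and myeloid sums overlapped with the rest, such as 5666 at ZT0 replicate 1 against 4694 at ZT18 replicate 2. The part of these markers in the spread of Cpt1a was not tested.

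**Figure D2:**
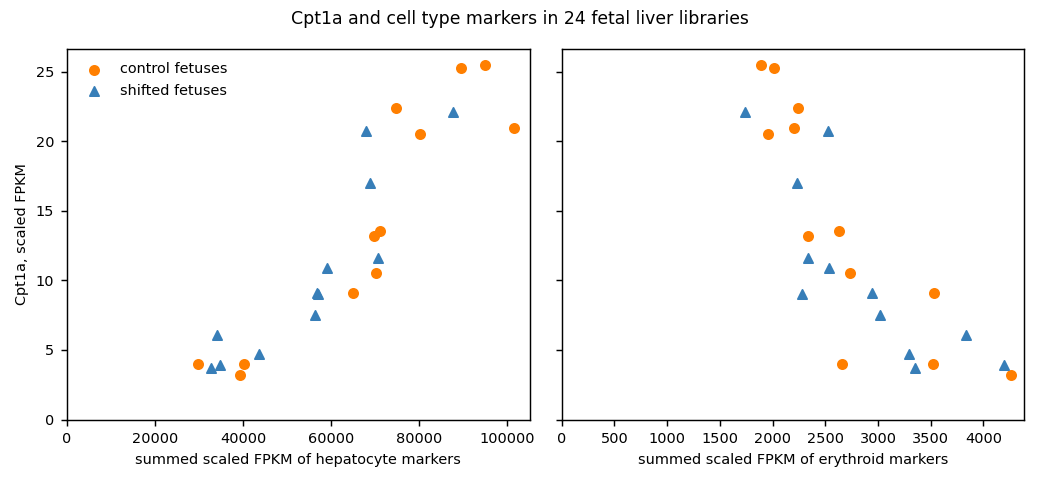
Cpt1a (y axis, scaled FPKM) against the summed scaled FPKM of 11 hepatocyte markers (left) and 6 erythroid markers (right) in the 24 fetal libraries, 1 point each. The 6 libraries with Cpt1a of at most 4.68 FPKM hold at most 43618 FPKM of hepatocyte markers, and those with at least 20.5 FPKM hold at least 67958.

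Between fetal and maternal liver of the same schedule, 8 of the 9 enzymes were lower in fetuses in each schedule on scaled values (Acadl and Hadhb turn higher as deposited), with Acadm not called (adjusted p = 0.0662 in control and 0.263 in shifted, limma). The background was 43.9% of genes called lower in control and 43.1% in shifted animals. Here both stages were scaled together, so FPKM differ from those above. The carnitine shuttle differed most. Cpt1a was at 11.0 FPKM ± 6.49 in control fetuses and 69.8 ± 23.5 in control mothers (SD, n = 12), a fold of 0.15 (-2.74 ± 0.25, adjusted p = 3.35e-09). The highest fetal library (19.9 FPKM) was below the lowest maternal one (41.9). Cpt2 stood at 15.0 ± 2.27 against 62.4 ± 6.64 (fold 0.252) and Slc25a20 at 17.1 ± 4.49 against 73.0 ± 14.1 (fold 0.242). In shifted animals these 3 folds were 0.141, 0.236 and 0.226.

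Among the dehydrogenases Acadvl (fold 0.315) and Acads (0.347) were far below the mothers in control fetuses, Acadl less so (0.65), and Acadm overlapped with 137 FPKM ± 36.5 in fetuses and 160 ± 30.2 in mothers. The trifunctional subunits differed from each other: Hadha stood at a fold of 0.496 and Hadhb at 0.758. In control animals 7 enzymes had no overlap between the 12 fetal and the 12 maternal libraries, on a background of 25% of genes lower without overlap, and in shifted animals 6, on 24.7%. The scaling mattered here. With values as deposited Acadm and Hadhb were called higher in fetuses in both schedules (0.46 and 0.33 in control, 0.64 and 0.42 in shifted animals), Acadl was called higher in shifted animals (0.21) and stood at 0.10 in control ones (adjusted p = 0.105), and Hadha in shifted animals was at -0.04, while Cpt1a, Cpt2, Slc25a20, Acads and Acadvl remained called lower. Without GC and length trends Hadhb in control animals did not pass. Fetal liver also makes blood: erythroid markers summed to 1478 to 3245 FPKM over 6 genes in control fetuses and to 15.2 to 87.8 in control mothers, and hepatocyte markers to 22369 to 79071 over 11 genes against 166554 to 244483. Their part in these differences was not tested.

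**Figure D3:**
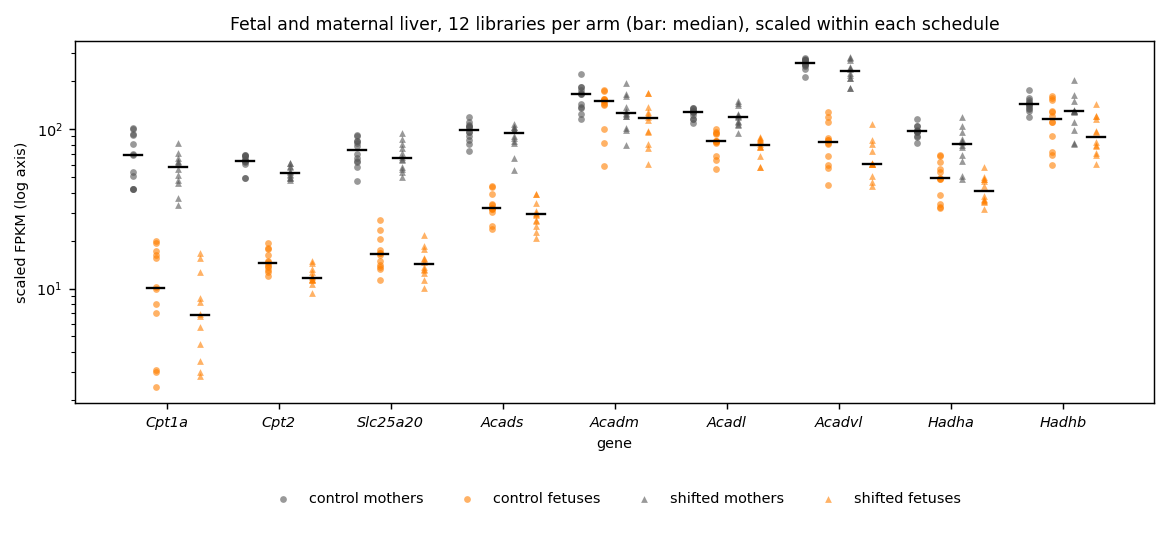
Scaled FPKM (log axis) of the 9 enzymes in each library of control and shifted mothers (grey) and fetuses (orange), 12 per arm, with the median as a bar. The 3 shuttle genes, Acads, Acadvl and Acadl separate without overlap in both schedules, and Hadha in control animals only. Acadm and Hadhb overlap, and Acadm, Acadl and Hadhb turn higher in fetuses when values are taken as deposited.

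Time of day was tested within each arm by an F test over the 4 times in limma. In low-fat control offspring Cpt1a was the 1 enzyme called, on a background of 14.1% of genes. Its 3 libraries held 41.8, 47.5 and 58.5 FPKM at ZT0, 87.3, 72.6 and 72.0 at ZT6, 71.7, 67.2 and 71.3 at ZT12, and 31.2, 57.3 and 34.2 at ZT18. All libraries at ZT6 and ZT12 were above all at ZT0 and ZT18, with a fold of 1.93 between the highest and lowest time (adjusted p = 0.0306). The call was lost without the filter and in 7 of 12 fits that left out 1 library (ZT6 replicates 2 and 3, ZT12 replicates 1 to 3 and ZT18 replicates 1 and 3), with adjusted p up to 0.0816. Without ZT6 replicate 1, Cpt2, Hadha and Hadhb passed as well, and without ZT0 replicate 3 Cpt2 did.

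In low-fat shifted offspring 3 enzymes were called, on a background of 23.1% of genes. Cpt1a stood at 107, 106 and 110.2 FPKM at ZT6, at 52.2, 31.2 and 43.3 at ZT0, at 57.9, 56.5 and 75.9 at ZT12, and at 62.7, 49.7 and 24.8 at ZT18. The ZT6 libraries were above every other library of the arm, with a fold of 2.57 (adjusted p = 0.0186, limma). Acadm was highest at ZT6 (118, 121 and 159 FPKM) and lowest at ZT0 (59.0, 67.3 and 75.7), a fold of 1.94 (adjusted p = 0.022). Acadl was lowest at ZT0 (58.2, 69.3 and 55.5) and highest at ZT18 (112, 80.7 and 116), a fold of 1.66 (adjusted p = 0.0328). The Acadl call was lost with the trends removed, with cosine terms and in 8 of 12 fits without 1 library (not without ZT0 replicate 2, ZT6 replicate 1 or ZT18 replicates 2 and 3), with adjusted p up to 0.0965. Without any 1 of the 3 ZT6 libraries Cpt1a did not pass, and without ZT6 replicate 2 or 3 no enzyme did.

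In high-fat shifted offspring 5 enzymes were called, on a background of 30.2% of genes, with folds of 1.27 to 1.53: Cpt2, Slc25a20, Acads, Acadm and Acadvl. Of the 9 members, 8 had their highest mean at ZT12 and Cpt2 at ZT18. Acadm held 195, 199 and 177 FPKM at ZT12 and 112 to 153 in the 9 libraries of the other times, so that the groups did not overlap (fold 1.44, adjusted p = 0.0204, limma). Acads held 104, 107 and 97.4 at ZT12 against 76.2 to 97.2 at the other times (fold 1.27, adjusted p = 0.0293). Slc25a20 held 46.9, 50.7 and 64.3 at ZT6 and 86.9, 87.4 and 73.5 at ZT12 (fold 1.53, adjusted p = 0.0319). Cpt1a had 128, 120.4 and 89.8 at ZT12 and 60.0, 55.3 and 98.6 at ZT18 and missed the threshold (adjusted p = 0.0533). The count depended on single libraries. Without ZT18 replicate 3, 8 enzymes passed, and without ZT6 replicate 2, ZT12 replicate 1 or ZT12 replicate 2, 1 did. Without ZT0 replicate 1 or 2, 2 did, and without ZT6 replicate 1, 3 did. With values as deposited 1 passed (Acadm).

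In high-fat control offspring 0 of the 9 enzymes were called (0 at an unadjusted p under 0.05), on a background of 0.753%, and 7 of the 9 had their highest mean at ZT6. In control mothers 0 were called (1 at an unadjusted p under 0.05) on a background of 4.28%. Cpt1a had the largest fold there, 1.94, from 31.0, 32.4 and 31.9 FPKM at ZT18 to 69.9, 67.2 and 52.5 at ZT6 (adjusted p = 0.0805, limma), and it passed without ZT0 replicate 1, which stood at 76.1 beside 38.9 and 40.9. In shifted mothers 0 were called (0 at an unadjusted p under 0.05) on 0.716%, 6 of the 9 had their highest mean at ZT6, and the Cpt1a fold was 1.23. Libraries of 1 ZT may differ in clock time in that arm, which limits its F test. In fetuses 0 members and 0% of genes were called in either arm, with no member at an unadjusted p under 0.05 in limma. All 9 had their lowest mean at ZT0 in control fetuses. Replicates 2 and 3 there were the lowest of the arm in summed hepatocyte markers (39291 and 29834 FPKM). The members moved together between fetal libraries (median r 0.87), so the 9 lowest means are not separate observations. The part of the markers was not tested. The change of the daily profile with schedule or diet was tested by 5 interactions, and 0 members passed in any: the backgrounds were 1.65% for schedule in mothers, 0.046% and 0% for schedule in low-fat and high-fat offspring, and 0.0276% and 0.157% for diet in control and shifted offspring. At an unadjusted p under 0.05 the counts in that order were 0, 2, 1, 1 and 2. Without high-fat ZT12 replicate 1, Cpt2 passed for diet in control offspring. Arms that passed and arms that did not are therefore not shown to differ in rhythm.

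**Figure D4:**
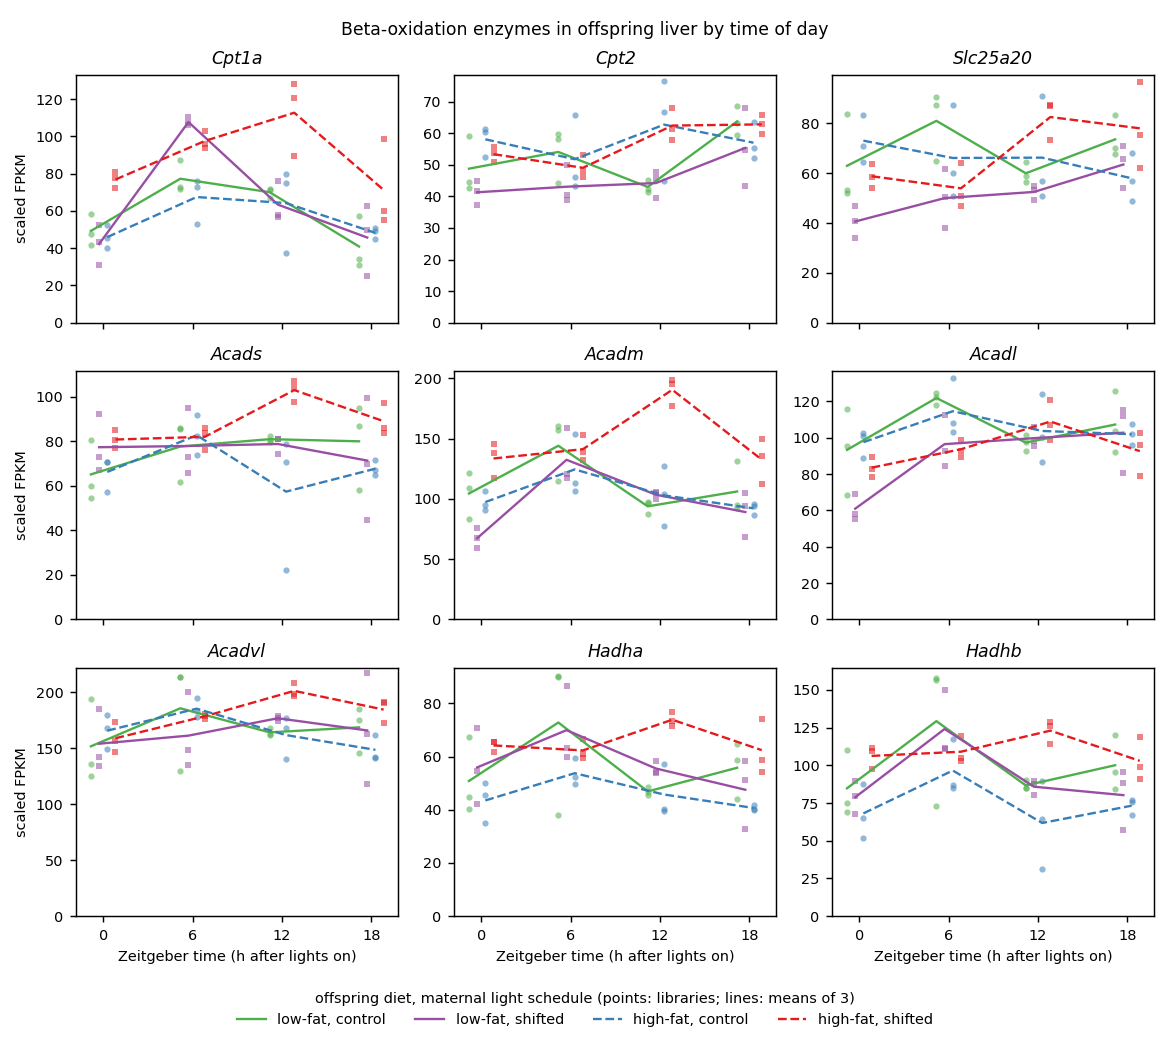
Scaled FPKM of the 9 enzymes (1 panel each) in offspring liver at ZT0, ZT6, ZT12 and ZT18 h, with 1 point per library and lines through the means of 3 libraries, coloured by diet and maternal schedule. In the high-fat shifted arm 8 of 9 enzymes are highest at ZT12, and in the low-fat shifted arm the 3 Cpt1a points at ZT6 lie above the rest of the arm.

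The members did not move as 1 unit in the offspring. Over the 16 group means (4 arms at 4 times) the Pearson r of the 36 pairs ran from -0.11 (Cpt1a with Cpt2) to 0.90 (Hadha with Hadhb), with a median of 0.53. These are descriptions over groups that share arms and scaling. Hadha and Hadhb also had r = 0.84 over the 48 offspring libraries, 0.98 over the 24 fetal and 0.95 over the 24 maternal ones, the highest of all pairs in each set. The gap between them was printed above because of this likeness, and its part in the likeness was not tested. Cpt2 had the lowest median r with the other members, 0.14. By likeness over the 16 group means, among 8166 eligible genes, the 4 genes nearest to the mean profile of the 9 were Hadh (r = 0.94), Dhrs4 (0.93), Acot4 (0.91) and Hsd17b4 (0.89). Nearest to Cpt1a alone were Cobll1 (0.93), Mfsd1 (0.93), Mgam (0.92), Lmbrd1 (0.92) and Rabgap1l (0.91).

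Other genes of fatty acid oxidation were read from 6 lists of 58 genes. In high-fat offspring 28 of 57 tested were higher and 6 lower with the shifted schedule, with a median of 0.38. The background was 26.3% of all genes called higher and 48.1% called in either direction. The peroxisomal list had 7 of 9 higher and 0 lower, among them Pex11a, which acts in peroxisome division (42.3 FPKM ± 22.1 against 15.0 ± 6.98, SD, n = 12, fold 2.62, adjusted p = 2.0e-06, limma). Of the other mitochondrial enzymes 7 of 14 were higher and 1, Etfb, was lower (fold 0.615): it is a subunit of the flavoprotein that takes electrons from the acyl-CoA dehydrogenases. In offspring of shifted mothers the high-fat diet went with 27 of 57 higher (11.5% of all genes) and 6 lower, and all 4 ketogenesis genes were higher, Acat1 by a fold of 1.43 and an adjusted p of 0.000161. Of all genes called there 49.6% were higher. In control offspring 1 was higher and 8 lower (7.82% of all genes), among them the malonyl-CoA makers Acacb (fold 0.444) and Acaca (0.537). The interaction called 26 higher (13.9% of all genes) and 3 lower, with all 9 peroxisomal genes among the 26 (Pex11a at 1.84, log2). Of all genes it called, 57.4% were higher.

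In mothers 4 of 55 were called (7.91% of all genes), all lower, the leading ones being Cyp4a14 (fold 0.416), Crat (0.76) and Pex11a (0.657). In fetuses 0 of 54 were called between schedules, and 0 of 57 in low-fat offspring. Between fetuses and mothers 51 of 56 were lower and 2 higher in control animals, and 52 and 2 in shifted animals (43.9% and 43.1% of all genes were lower), with Acsm5, a medium-chain acyl-CoA synthetase, at folds of 0.0367 and 0.0361. By time of day 20 of 55 were called in low-fat shifted offspring (23.1% of all genes), 23 of 55 in high-fat shifted (30.2%), 6 of 56 in low-fat control (14.1%) and 0 of 56 in high-fat control offspring (0.753%). The order of these counts is that of the shares over all genes. The change of the profile with schedule called 0 of 57 in limma on either diet. The lists were chosen with earlier results known, and nothing is drawn from them about the 9 enzymes alone.

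**Figure D5:**
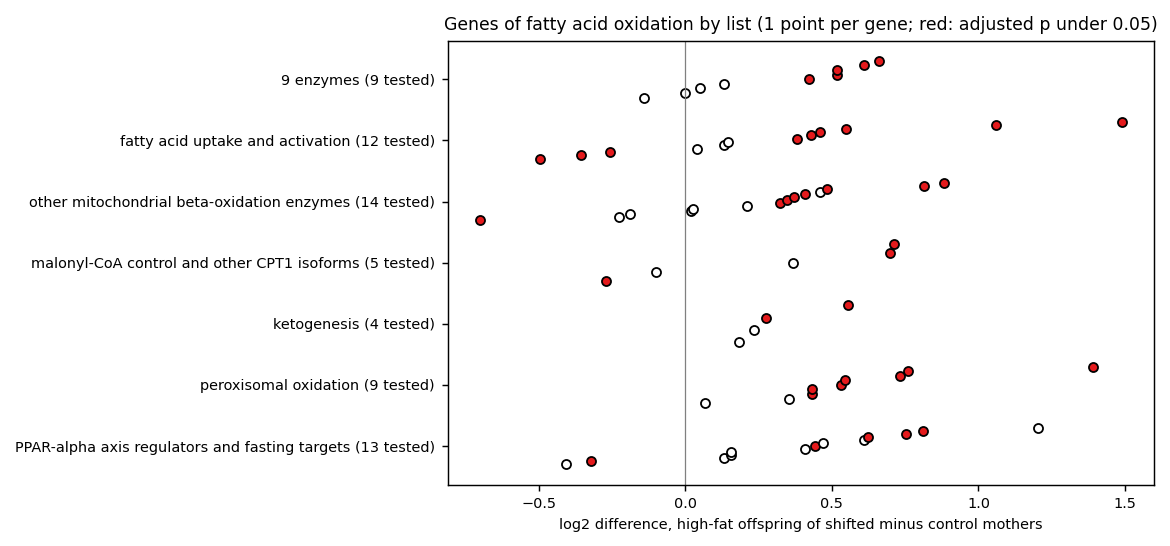
Log2 differences between high-fat offspring of shifted and of control mothers (x axis) for the 9 enzymes and the 6 other lists of fatty acid oxidation genes, 1 point per gene, red where adjusted p was under 0.05. Of the 9 enzymes 5 are red and to the right of 0, and of the 57 other genes 28 are red and to the right and 6 red and to the left. Over all genes 26.3% were called higher and 48.1% in either direction.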

How the data were processed

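The 96 libraries were made from poly(A) RNA of liver with a stranded kit, per the labels' protocols. The authors deposited 1 table of FPKM for each of 8 arms, made with Cufflinks 2.2.1, TopHat2 2.1.1 and the build mm10 per the submitters' processing notes. The unit FPKM was read from the deposited values and the named tools. Neither the annotation nor any filter was given in the sources used here. Of 24883 table entries, 817 of 280 repeated symbols were left out.

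Median-of-ratios factors were computed within mothers, fetuses or offspring (for fetuses against mothers, within a schedule). The model was limma 3.58.1 (R 4.3.3) on log2(FPKM + 1) with a mean for each arm and time, over genes that reached FPKM 1 in 3 libraries of the model. Levels are contrasts of arm means across the 4 times, the 48 offspring libraries being modelled jointly. Time of day and its interactions are F tests with 3 degrees of freedom. Benjamini-Hochberg adjustment ran over all genes tested, with 0.05 as the threshold. A library is counted as above or below by its position against the mean of the opposite arm at its own time.

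Alternatives were a pseudocount of 0.1, no filter, the deposited values unscaled, scaling by the upper quartile, a replicate block, GC and length trends removed (splines with 4 degrees of freedom, longest GENCODE transcript), cosine and sine terms, only the 2 arms compared, without the 5 low-correlation libraries, and leaving out each library. The model fits were tested on simulated data. Noise was drawn independently for each gene around its mean, few genes were changed, and for time tests only ZT12 was changed. Real libraries share variation across genes, and 48.1% of genes were called in high-fat offspring, so recovery there may differ. Among called genes 3.125% (time by schedule in mothers) to 7.03% (time of day in control mothers) were false. Of 100 genes given a fold of 1.5, 87% were recovered for levels in mothers and 79% in high-fat offspring. For time of day 38% were recovered in control mothers and 66% in high-fat shifted offspring. For time by schedule in mothers it was 13%, so a gene not called there may still vary. All 9 enzymes are named throughout; of the lists, up to 3 called genes of smallest p per comparison were named, and the nearest genes by Pearson r. Some genes that these criteria would name are not reported here. The enzymes and lists were chosen with earlier results of these data known. Python 3.11.15 was used for the annotation, promoters and figures.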

Additional observations from a re-analysis of the deposited data

Results flagged for a closer look

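For 5 enzymes the effect of the maternal schedule differed between the diets, as tested by the interaction of schedule and diet in limma over 48 offspring libraries. Acadm differed by 0.73 ± 0.13 (log2 ± SE, adjusted p = 0.000361), from -0.21 on the low-fat to 0.52 on the high-fat diet. Hadhb differed by 0.71 ± 0.18 (adjusted p = 0.00577), Cpt1a by 0.61 ± 0.18 (adjusted p = 0.0148), Hadha by 0.48 ± 0.17 (adjusted p = 0.0326) and Slc25a20 by 0.47 ± 0.15 (adjusted p = 0.0194). Cpt1a and Acadm passed under every alternative run and with any 1 library left out. In the other 3 the call ended under at least 1 alternative, for Hadha also without 1 of 6 libraries (low-fat control ZT0 replicate 3, ZT6 replicates 2 and 3 and ZT18 replicate 2, low-fat shifted ZT0 replicate 2, and high-fat shifted ZT18 replicate 3), with adjusted p up to 0.0588.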

How the results depend on the processing

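Of 1413 values recomputed under other settings, 1350 kept their direction and side of the threshold, 23 were weaker, 22 stronger or larger and 18 reversed; with 1 library left out, 3958 of 4104 did. For each value below, the cause was not tested. The count of enzymes called in mothers went from 0 to 1 without the filter and with trends removed, and to 2 as deposited; in fetuses from 1 to 0 without the filter; in high-fat offspring from 5 to 8 as deposited. For diet in control offspring it went from 1 to 2 as deposited and to 0 with trends removed, with only the 2 arms, or without low-correlation libraries; for the diet by schedule interaction from 5 to 3 with upper quartile scaling. For time of day it went from 1 to 0 without the filter (low-fat control), from 3 to 5 as deposited (low-fat shifted) and from 5 to 1 as deposited (high-fat shifted).

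Leaving out 1 library gave 0 to 2 in mothers, 0 to 1 in fetuses, 0 to 2 for diet in control offspring, 0 to 1 for its time by diet term, and for time of day 0 to 1 in control mothers, 0 to 4 in low-fat control, 0 to 3 in low-fat shifted and 1 to 8 in high-fat shifted offspring.

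Directions reversed as deposited for fetus against mother (Acadm 0.46, Acadl 0.10 and Hadhb 0.33 in control, 0.64, 0.21 and 0.42 in shifted), the schedule on high fat (Cpt2 0.26, Acadl 0.12) and low fat (Acadvl 0.029), and diet in control offspring (Acadl -0.13). With upper quartile scaling Slc25a20 in high-fat offspring was at -0.00914 and Acadvl for diet in control offspring at 0.012. With trends removed Hadha in low-fat offspring was at -0.00339 and Cpt2 in high-fat offspring at 0.086. Without low-correlation libraries Acads and Hadha in low-fat offspring were at -0.050 and -0.018, Cpt2 in high-fat at 0.021 and Cpt1a for diet in control offspring at 0.028. With 1 library left out, uncalled differences crossed 0: in low-fat offspring Cpt1a (-0.017 to 0.15), Acads (-0.066 to 0.076), Acadvl (-0.086 to 0.029) and Hadha (-0.063 to 0.099), for diet in control offspring Cpt1a (-0.10 to 0.033), Acadl (-0.048 to 0.046) and Acadvl (-0.066 to 0.041), and in high-fat offspring Cpt2 (-0.057 to 0.044).

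Libraries of 1 replicate number did not deviate together: of 96 pairs 14 had a correlation over 0.1 (median -0.01). With the replicate block, 0 enzymes were called in mothers, 1 in fetuses, 5 in high-fat offspring, 1 and 4 for diet in control and shifted offspring and 5 for the interaction, and for time of day 2 in low-fat shifted (Acadl not called) and 4 in high-fat shifted offspring (Acadvl not called). Over all genes it called 249 for time in control mothers in place of 431, and 49 in high-fat control offspring in place of 76.

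Scaling also moved the split of all called genes: as deposited, 14.6% were higher for diet in control offspring in place of 46.3%, 69.3% in place of 49.6% in shifted offspring, 87.6% in place of 57.4% for the interaction, 47.4% in place of 61.1% in fetuses, and 76.0% and 78.1% in place of 48.8% and 49.0% for fetuses against mothers. With upper quartile scaling it was 38.6% in shifted offspring and 44.9% for the interaction. As deposited 1255 genes were called in mothers in place of 821 and 190 in fetuses in place of 453 (177 with trends removed), and 894 for diet in control offspring in the 2-arm fit in place of 1580. Cosine terms called 2222 in place of 1432 for time in low-fat control offspring. Without low-correlation libraries the time interactions called 227 in place of 5 (schedule, low-fat), 110 in place of 3 (diet, control) and 62 in place of 17 (diet, shifted). For the schedule on low fat, 1 gene became 4 without the filter, 2 with only the 2 arms and 3 without low-correlation libraries; for time in shifted mothers, 72 became 14 without the filter and 1 with cosine terms. The time by schedule term on low fat gave 25 without the filter, 2 as deposited, 11 with trends removed and 1 with only the 2 arms, and on high fat 1 in place of 0 without low-correlation libraries. The time by diet term in control offspring gave 1 with pseudocount 0.1 and as deposited, 0 with upper quartile scaling and 12 with trends removed; in shifted offspring it gave 4 with pseudocount 0.1, 44 without the filter, 8 with upper quartile scaling, 2 with trends removed and 32 with only the 2 arms. With trends removed, 1714 genes in place of 2627 were called for the diet by schedule interaction. FPKM without counts leaves the precision of low values unknown.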
